A study of Mus musculus with 30 samples.

Results

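Transcripts of sugar breakdown and of the response to low oxygen were followed in cultured mouse B cells with different levels of Irf4, a factor that plasma cell formation requires. The set holds 39 named genes: 4 transporters of glucose or lactate, 10 genes of upper glycolysis (down to the triose phosphates), 9 of lower glycolysis and of the fate of pyruvate, 7 of the pentose phosphate pathway and 9 of the hypoxia response. A gene was read by its probe set of highest mean among the sets annotated to that symbol alone, which 36 of the 39 genes had. Of these, 33 entered the tests, out of 12183 genes tested in all. Gpi1, Eno1 and G6pdx are named only. Slc16a3 and Tktl1 failed the filter on low signal with the set chosen by the rule, and Gapdh was read by an Affymetrix control set, so these 3 genes are described without a count. Egln3 and Eno2 passed that filter only through the groups in which they are high (6 arrays, all DOX cultures of day 3, and 8 arrays, all KO), so their differences are given without a test, and counts over 33 members that they enter are also given over the other 31.

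Glycolysis turns glucose into pyruvate in the cytosol and yields ATP without oxygen; lactate dehydrogenase turns pyruvate into lactate, which monocarboxylate transporters carry out of the cell. The pentose phosphate pathway branches off at glucose 6-phosphate and supplies NADPH and ribose for nucleotides. In the hypoxia response, prolyl hydroxylases mark the factor HIF-1α for destruction while oxygen is present; when oxygen is short HIF-1α accumulates and switches on genes of glycolysis, angiogenesis and mitophagy. Activated B cells grow and divide quickly and draw on glucose, and plasma cells need sugars to glycosylate antibody.

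B cells were taken from the spleens of C57BL/6, B1-8i mice that were either Irf4+/+ (wild type) or Irf4-/- with an Irf4 gene that doxycycline (DOX) induces (called KO at every dose). Wild-type cells were profiled at days 0, 1 and 3 without DOX, KO cells at day 0 without DOX, and KO cells at days 1 and 3 with DOX at 0, 16 or 100 ng/mL, called zero, low and high DOX. The cultures were stimulated by CD40 ligand together with the cytokines IL-2, IL-4 and IL-5, and day 0 cells were not. There were 10 groups of 3 Affymetrix arrays, 1 mouse per array within a group, so n = 3 for every group mean below. All KO cells lack the native Irf4 alleles and carry the inducible gene at every dose, while the wild-type cultures received no DOX, so a comparison of DOX cultures with wild type differs in both. The sources used here do not name the promoter that drives the inducible gene.

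Levels below are log2(intensity + 16) of the deposited signal, errors of group means are SD of 3 arrays, and differences are log2 values with the standard error (SE) and the Benjamini-Hochberg adjusted p of limma's test over all 12183 genes. A member is called higher or lower, and is said to have risen or fallen, where that adjusted p is under 0.05. Median array intensities lay between 171.4 and 199.7. One probe set of Irf4 followed DOX: it stood between 7.34 and 7.68 on the 3 zero DOX arrays of day 3, between 12.94 and 13.09 with low DOX and between 13.53 and 13.66 with high DOX. It read only 7.23 to 8.07 on the wild-type arrays, and the other Irf4 set read 10.77 to 13.22 on all arrays, KO included, so neither checks the deletion. On day 1 the library labelled zero DOX replicate 2 read 10.77 by the DOX-following set, close to the 11.17 and 10.89 of low DOX replicates 1 and 3. The library labelled low DOX replicate 2 read 7.69, close to the 7.84 and 7.80 of zero DOX replicates 1 and 3. The day 1 dose counts are therefore also given without these discordant arrays. By the level of Xist, KO replicates 1 and 2 were male and KO replicate 3 and all wild-type mice female, so genotype and sex are partly confounded.

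Markers of other cells moved with the groups. B cell markers were high in all groups, with summed intensities of 7 measured genes between 40778 and 73524. The summed intensity of 14 myeloid markers lay between 3795.5 and 4057.7 in wild-type day 0 arrays and between 8139.2 and 17404 in KO day 0 arrays; at day 3 it lay between 9514.2 and 18795 with zero DOX, between 4383.1 and 7691.4 with low DOX, between 2745 and 3585.2 with high DOX and between 2975.2 and 3259 in wild type. The sum of 5 NK cell markers at day 3 was 4827.3 to 9258.9 with zero DOX, 3754.2 to 6632 with low DOX, 959.27 to 1733.3 with high DOX and 1392.4 to 2075.4 in wild type. For 5 platelet markers it was 2800.7 to 3847.4 with zero DOX, 1100.6 to 1420 with low DOX, 1003 to 1066.2 with high DOX and 1266.6 to 1705.7 in wild type. Plasma cell markers went the other way. Their day 3 sum of 5 genes was 9198.2 to 10409 with zero DOX and 20509 to 26882 with low DOX. It was 29173 to 32543 with high DOX and 25953 to 26904 in wild type. The 5 genes include Irf4, read by its brighter set. In unstimulated wild-type cells of day 0 the sum was already 22378 to 28266, so it is not particular to plasma cells. The part of these cells in the results below was not tested. In such bulk samples, fewer cells of a type and less RNA per cell cannot be told apart.

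**Figure D1:**
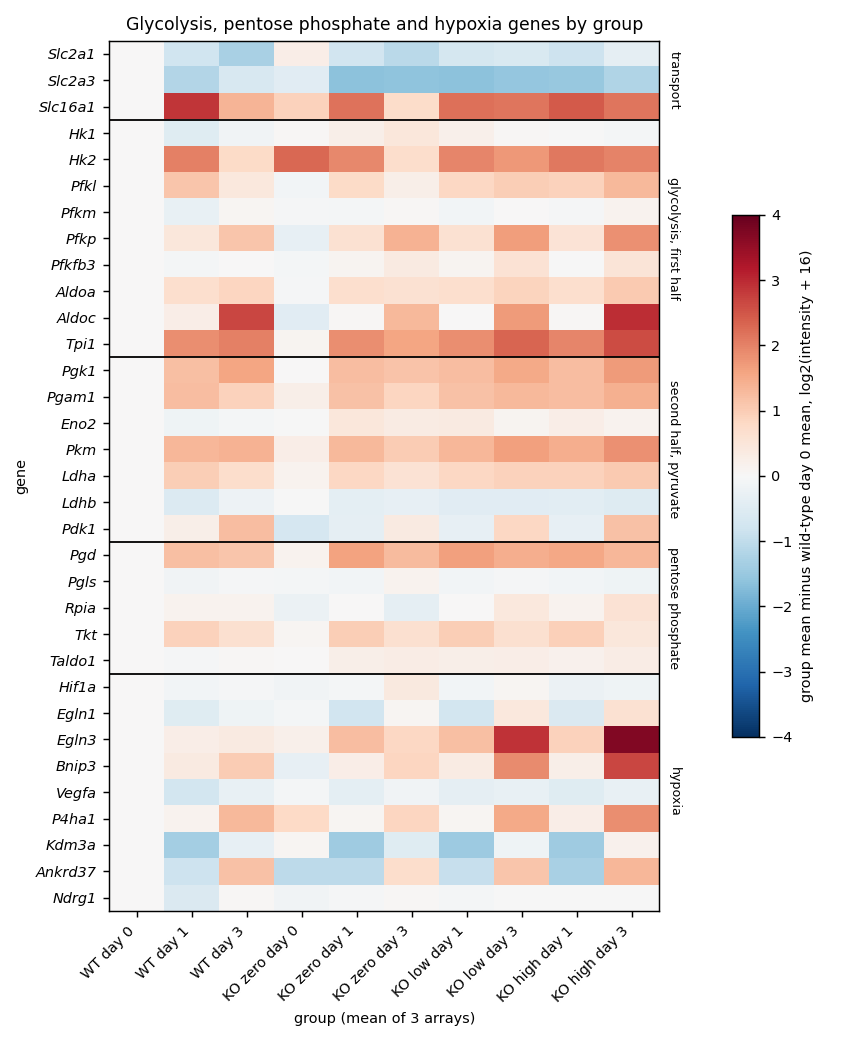
Mean level of each of the 33 tested members in each of the 10 groups (3 arrays each), as the log2(intensity + 16) difference from the wild-type day 0 mean (colour, from -4 to 4), ordered by role. Slc16a1, Hk2 and Tpi1 are raised in all stimulated groups, Slc2a3 is lowered in all of them, and Egln3 stands highest in the low and high DOX cultures of day 3.

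Activation in wild-type cells raised most enzymes of glycolysis within the first day. It lowered 6 of the 9 hypoxia genes by their chosen sets, not all of them by stable calls. Between days 0 and 1, 13 of the 33 members rose and 12 fell, while 81.5% of all genes tested were called either way (33.9% higher, 47.6% lower), so the share of members that changed was near the background. The members that rose were the lactate transporter Slc16a1, 5 genes of upper glycolysis, 4 of lower glycolysis and 3 of the pentose phosphate pathway. Of the 9 hypoxia genes 0 rose and 6 fell (Hif1a by 0.12, while another of its probe sets was called higher). Their median difference was -0.48 against -0.15 over all genes. A further set of Egln1 was flat (-0.04, adjusted p = 0.66). The Ankrd37 call was lost after quantile normalization (adjusted p = 0.09), without replicate 1 or 2 of either day and without replicate 3 of day 1. From day 1 to day 3 the picture differed: 16 members rose and 7 fell (69.4% of all genes called, 43.3% higher and 26.2% lower), and 7 of the 9 hypoxia genes rose while 0 fell, with a median of 0.63 against 0.12 over all genes. Both comparisons share the day 1 arrays. Over the whole 3 days 18 members rose and 4 fell (65.3% of all genes called, 33.4% higher and 31.9% lower), and the members' median was 0.42 against -0.01 over all genes. Among genes called between days 1 and 3, 62.3% were higher as deposited, 52.9% with arrays centred on their medians and 49.2% after quantile normalization, while the members' count stayed between 15 and 16 higher and 7 and 8 lower.

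In KO cells without DOX, 17 members rose and 7 fell by day 1 (69.8% of all genes called, 39.8% higher and 30.1% lower), and 21 rose and 6 fell by day 3 (62.4% of all genes called, 36% higher and 26.4% lower). Without Egln3 and Eno2 these were 15 and 7, and 19 and 6, of 31. Centring moved the share of higher calls among all genes at day 3 from 57.7% to 41.1% and the members' count to 19 higher and 8 lower. KO and wild type also differed at each day. At day 0, 6 members were higher and 7 lower in KO (31.5% of all genes called, 13.1% higher and 18.4% lower); these 13 calls became 8 without KO or wild-type replicate 1 of day 0 and 4 where only both groups entered the fit. With centred arrays the share of higher calls over all genes at day 0 moved from 41.5% to 52.9%, and the members' count was 6 and 6. At day 1, 8 were higher and 6 lower (49.6% of all genes, 33.9% higher and 15.7% lower), a split that turned to 7 and 7 with centred arrays and to 6 and 7 after quantile normalization, which moved the share of higher calls over all genes from 68.3% to 52.6% and 45.5%. At day 3, 7 were higher and 10 lower (34.9% of all genes, 19% higher and 15.8% lower). Without Egln3 and Eno2 the counts were 6 and 6 at day 1 and 6 and 10 at day 3. At each of these days most myeloid markers were higher in KO too: 11, 13 and 10 of 14 were called higher and 0 lower.

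Most of the set was higher at day 3 where DOX had induced Irf4. With high against zero DOX, 20 of the 33 members rose and 5 fell, where 48.6% of all genes were called, 24.4% higher and 24.2% lower; the members' median difference was 0.53 against 0.00 over all genes. With low against zero DOX, 19 rose and 4 fell (35.8% of all genes called, 17.6% higher and 18.2% lower). Without Egln3 and Eno2 the counts were 19 and 4 of 31 with high and 18 and 3 of 31 with low DOX. Against wild type at day 3, 19 members were higher and 3 lower with high DOX (41.1% of all genes called, 22.1% higher and 19% lower) and 18 higher and 2 lower with low DOX (34.2% of all genes called, 18.9% higher and 15.3% lower), or 17 and 3 and 16 and 2 of 31 without Egln3 and Eno2. These comparisons share control arrays. In the high against zero DOX comparison 7 of 7 B cell markers, 10 of 14 myeloid and 5 of 5 NK cell markers were lower and 4 of 5 plasma cell markers higher; the remaining one was Irf4, read by its brighter set.

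Of this difference little was measured at day 1. By limma's test 0 of 33 members were called with high against zero DOX (2.75% of all genes called, 1.26% higher and 1.49% lower), 6 had an unadjusted p under 0.05 (11.7% of all genes), and limma with array weights called 2. With low against zero DOX, 0 members and 0% of all genes were called, and 0 members had an unadjusted p under 0.05 (0.279% of all genes). Without the discordant arrays, and with the KO replicate number as a block, 0 members were called at either dose. The high DOX effect itself differed between days: 18 members had a larger and 2 a smaller difference at day 3 than at day 1 (26.2% of all genes called, 12.4% higher and 13.8% lower), and 16 and 2 without the discordant arrays. Over the 31 members without Egln3 and Eno2 the split was 17 and 2. This last test was added after the data were seen.

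Glucose and lactate transporters were split. Slc16a1 encodes MCT1, a proton-linked carrier of lactate and pyruvate. Its level on the 3 wild-type arrays was 9.15, 9.11 and 9.36 at day 0, 12.05, 12.14 and 12.01 at day 1, and 10.76, 10.64 and 10.29 at day 3. No array of one day overlapped with another day: the rise over the first day was 2.86 (SE 0.11, adjusted p = 2.8e-17), a 7.24-fold change of intensity + 16 and the largest of any member, and it fell again by day 3, 2.83-fold (SE 0.11 on the log2 scale, adjusted p = 2e-11).

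KO cells began at a higher level of Slc16a1, with 10.06, 10.07 and 10.29 at day 0, which is 0.93 above wild type (adjusted p = 9e-07). They reached 11.27, 11.37 and 11.53 at day 1 and were back at 10.09, 9.79 and 9.95 at day 3, below all wild-type arrays of that day by 0.62 on average (adjusted p = 7.8e-05). With DOX the day 3 level was higher, at 11.53, 11.26 and 11.23 with low and 11.37, 11.31 and 11.33 with high DOX. The step from zero to low DOX was 1.40 (SE 0.11, adjusted p = 7.4e-10) and that from low to high DOX -0.01 (adjusted p = 0.99, 95% interval -0.24 to 0.22), so the whole measured rise lay in the first step.

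The glucose transporter members Slc2a1 and Slc2a3 moved the other way over the first wild-type day, with differences of -0.79 and -1.17. From day 1 to day 3 Slc2a3 rose by 0.53 (adjusted p = 0.00034). Slc2a6, of the same family but not a member, rose by 2.80 over the first day. Slc2a1 (GLUT1, the widespread basal glucose carrier) fell from 11.44, 11.37 and 11.64 at wild-type day 0 to 9.92, 9.98 and 10.68 at day 3, by 1.29 (SE 0.15, adjusted p = 3.8e-08). KO cells showed a fall of like size, 1.34 on the log2 scale. At day 3 Slc2a1 stood at 10.41, 10.39 and 10.47 with zero DOX and at 11.24, 11.21 and 10.94 with high DOX, a difference of 0.71 (adjusted p = 0.0003). The wild-type arrays of day 3 spread over a wider range than those of any KO dose and overlapped with zero DOX.

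Slc2a3 (GLUT3, a high-affinity glucose carrier) stood below wild type in KO cells on all 3 days, by 0.46, 0.48 and 0.97 on the log2 scale at days 0, 1 and 3. Its day 3 levels were 10.82, 11.00 and 10.91 in wild type, 10.02, 9.80 and 9.97 with zero DOX and 10.49, 10.29 and 10.20 with high DOX. The high DOX arrays lay between the other groups, 0.40 above zero DOX (adjusted p = 0.0063) and 0.58 below wild type (adjusted p = 0.00026). Slc16a3 (MCT4, the lactate exporter of highly glycolytic cells) lay between 5.73 and 6.45 on all 30 arrays, never above the table's median.

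**Figure D2:**
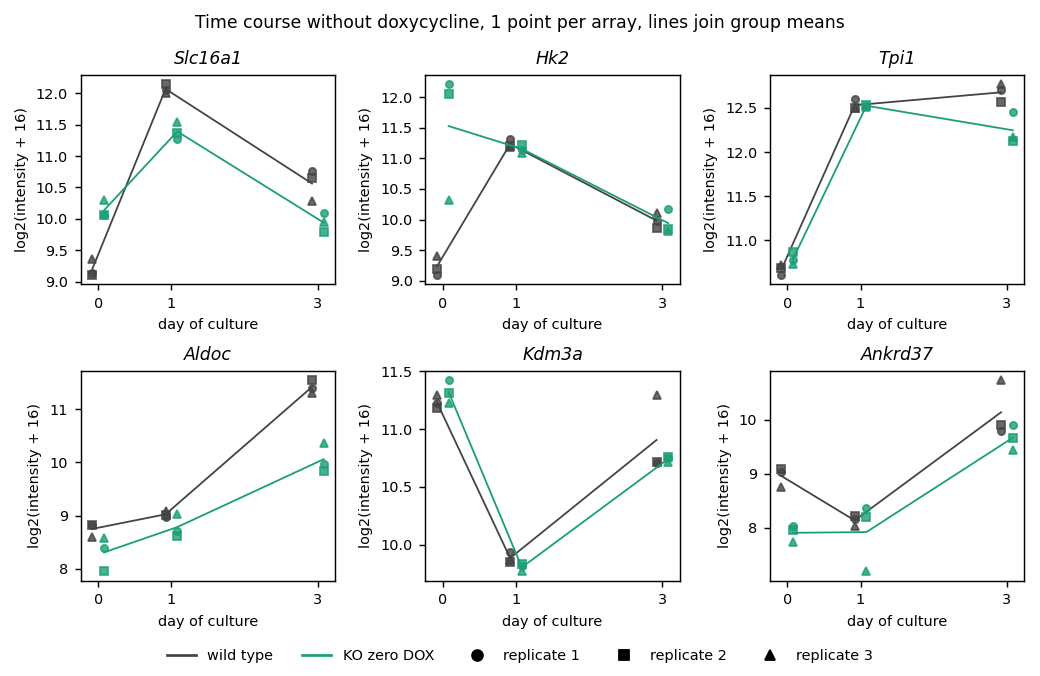
Level of 6 members on each array, as log2(intensity + 16), against the day of culture in wild type and in KO cells without DOX; lines join the means of 3 arrays. Slc16a1 peaks at day 1, Hk2 starts higher in KO at day 0, Aldoc climbs from day 1 to day 3, and Kdm3a dips at day 1.

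In upper glycolysis, the hexokinases differed from each other. Hexokinases trap glucose by phosphorylating it, and Hk2 encodes the inducible form. In wild type Hk2 stood at 9.09, 9.19 and 9.40 at day 0, 11.33, 11.20 and 11.18 at day 1, and 9.97, 9.87 and 10.10 at day 3. In KO cells it was already at 12.22, 12.05 and 10.32 before stimulation, above all wild-type arrays, and then at 11.15, 11.23 and 11.10 at day 1 and 10.17, 9.84 and 9.81 at day 3. The day 0 excess was 2.30 (SE 0.29, adjusted p = 2.5e-06), a 4.93-fold difference, and KO replicate 3, the female mouse, stood well below both other KO arrays. The excess was 2.91 without that array, 2.04 without replicate 2, whose Gapdh 3' and 5' control sets differed more than on any other array, and 1.98 with sex as a term; all 3 values passed the threshold.

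The later course of Hk2 differed between genotypes: by day 1 it had risen by 2.01 in wild type and changed by -0.37 in KO (adjusted p of that change 0.25), an interaction of -2.38 (SE 0.40, adjusted p = 0.00011). At day 3 of culture Hk2 was higher with DOX, with 11.24, 11.01 and 10.63 at low and 11.43, 11.37 and 10.85 at high DOX. High against zero DOX differed by 1.28 (SE 0.29, adjusted p = 0.00066), and high DOX exceeded wild type by 1.23. Hk1, the constitutive hexokinase, moved the opposite way: KO cells had 0.71 and 0.61 more than wild type on days 1 and 3 (adjusted p = 1.8e-06 and 1.2e-05), and high DOX lowered it by 0.54 at day 3 (adjusted p = 2.6e-05), to 10.29, 10.41 and 10.38, which is within the wild-type range of that day of 10.21 to 10.39 but for 1 array.

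The 3 phosphofructokinase subunits, which form the committed step of glycolysis, did not move as one. Pfkl, the liver-type subunit, was at 8.04, 8.22 and 8.13 at wild-type day 0 and 9.34, 9.28 and 9.05 at day 1. Its day 3 levels were 8.48, 8.46 and 8.69 in wild type, 8.49, 8.34 and 8.27 with zero DOX, 9.25, 9.08 and 9.04 with low DOX and 9.45, 9.33 and 9.54 with high DOX. Each dose step was called, 0.75 from zero to low and 0.32 from low to high (adjusted p = 1.7e-07 and 0.0099), and wild type overlapped only with zero DOX. Another probe set of Pfkl fell during activation, by 0.67 on the log2 scale over the first wild-type day, so the direction of Pfkl in the activation comparisons depends on the set.

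Pfkp, the platelet-type subunit, rose steadily by its chosen set. It went from 10.46, 10.45 and 10.58 at wild-type day 0 to 11.61, 11.57 and 11.67 at day 3. In KO it went further, to 11.93, 11.83 and 11.91 with zero DOX. Its 3-day rise was 1.12 in wild type and 1.72 in KO, an interaction of 0.61 (SE 0.10, adjusted p = 0.00017). The platelet markers stood higher in these zero DOX cultures too, and their part in the level of Pfkp was not tested. High DOX, where they were low, added 0.43 to the zero DOX level (adjusted p = 3.2e-05). By its further tested sets Pfkp changed by 0.04 and 0.03 over the first wild-type day (adjusted p = 0.68 and 0.74). In these sets KO differed from wild type at day 3 by -0.18 and 0.33 (adjusted p = 0.092 and 0.0063). High against zero DOX differed by 0.36 and 0.17 (adjusted p = 0.00055 and 0.14), so these changes of Pfkp depend on the set. The muscle-type subunit Pfkm stayed between 8.15 and 8.77 on all arrays, with 0 calls in the 5 dose comparisons. Pfkfb3, which makes an activator of phosphofructokinase, was 0.36 above wild type in KO cells of day 3 (adjusted p = 0.036). This call was lost with sex as a term (0.18) and after quantile normalization (adjusted p = 0.055). It was also lost without KO replicate 1 or 2, or without any single wild-type replicate, of day 3. The high against zero DOX difference of Pfkfb3, 0.14, was not called (adjusted p = 0.41).

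Both aldolases rose with dose, and Aldoc had the largest step from low to high DOX of the tested members. Aldolases split the 6-carbon sugar into triose phosphates; Aldoa is the main form and Aldoc the form known from brain. Aldoc stood between 8.60 and 8.83 in wild type at day 0, between 8.97 and 9.08 at day 1, and at 11.41, 11.54 and 11.31 at day 3, a rise of 2.39 over the last interval (SE 0.15, adjusted p = 1.7e-12) and of 2.67 in all. KO cells with zero DOX reached 9.98, 9.83 and 10.38 at day 3, which is 1.36 below wild type (SE 0.15, adjusted p = 1.8e-07). With low DOX the arrays read 10.51, 10.23 and 10.62, and with high DOX 11.76, 11.55 and 11.80. The low to high step was 1.25 (adjusted p = 5.3e-06) against 0.39 from zero to low (adjusted p = 0.042, with overlapping arrays). High DOX arrays all lay above the wild-type arrays, by 0.29 on average, which was not called (adjusted p = 0.13); with sex as a term it was 0.49 and called (adjusted p = 0.00058).

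Aldoa rose by 0.68 over the first wild-type day and lay 0.26 below wild type in KO cells of day 3 (adjusted p = 2.6e-05). Its dose steps were 0.29 and 0.16 (adjusted p = 8.2e-06 and 0.011). Tpi1, which interconverts the triose phosphates, read 10.61, 10.68 and 10.72 at wild-type day 0 and 12.60, 12.49 and 12.50 at day 1, a rise of 1.86 (SE 0.07, adjusted p = 2.8e-17). At day 3 it read 12.70, 12.56 and 12.77 in wild type, 12.45, 12.12 and 12.17 with zero DOX, 13.14, 12.93 and 12.94 with low DOX and 13.30, 13.20 and 13.32 with high DOX. Zero DOX arrays lay below all wild-type arrays and both DOX groups above them, and high DOX exceeded wild type by 0.60 (adjusted p = 2.9e-07).

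**Figure D3:**
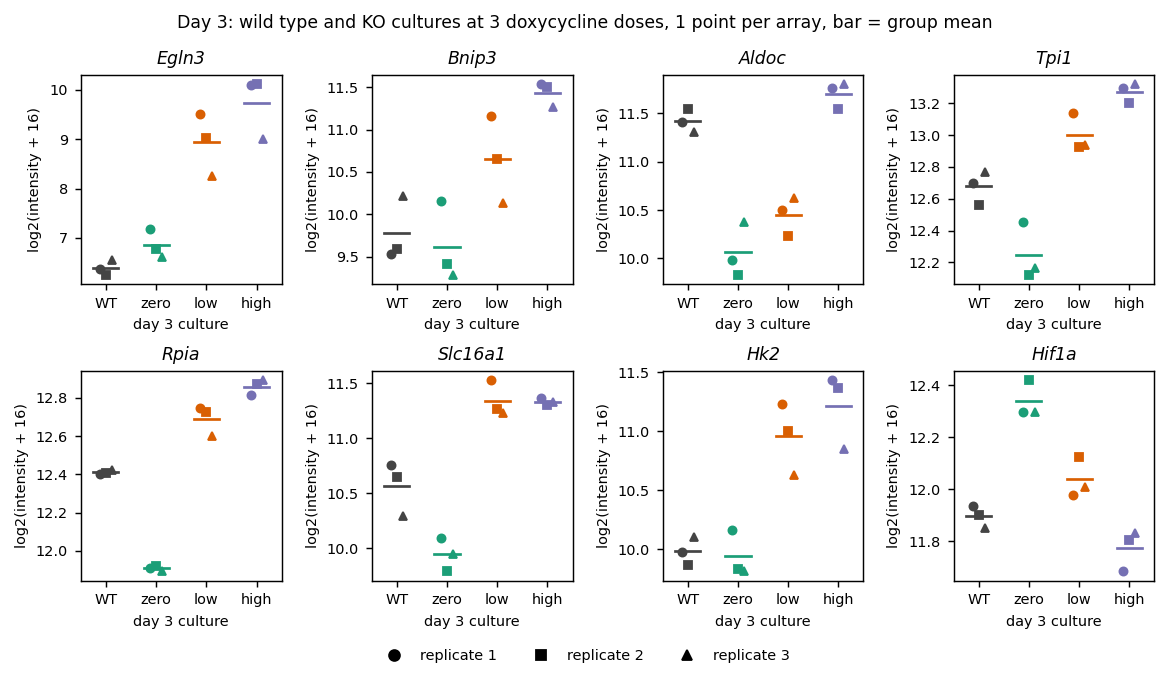
Level of 8 members on each day 3 array, as log2(intensity + 16), in wild type and in KO cultures with zero, low and high DOX; bars are means of 3 arrays and symbols give the replicate number. In 7 of the 8 panels the 3 high DOX arrays lie above all zero DOX and all wild-type arrays, and in Hif1a the high DOX arrays are the lowest.

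In lower glycolysis the abundant enzymes rose together on activation and were higher with high than with zero DOX at day 3. In wild type the first day raised Pkm, the pyruvate kinase of dividing cells, by 1.34, Pgam1, a phosphoglycerate mutase, by 1.22, Pgk1, a phosphoglycerate kinase, by 1.21, and Ldha, which makes lactate, by 0.97. Ldhb, the lactate dehydrogenase subunit of oxidative tissue, fell by 0.54 (adjusted p = 3.4e-05). The Gapdh control set, read without a test, rose from 12.86, 12.96 and 12.99 to 13.81, 13.81 and 13.83 over the same day.

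At day 3 Pkm read 12.16, 11.95 and 11.86 in wild type, 11.74, 11.57 and 11.51 with zero DOX, 12.34, 12.26 and 12.11 with low DOX and 12.51, 12.45 and 12.35 with high DOX. High DOX exceeded zero DOX by 0.83 (SE 0.09, adjusted p = 6.7e-08) and wild type by 0.44 (adjusted p = 0.00036), with no overlap in either. High against zero DOX differences were 0.58 for Pgk1, 0.58 for Pgam1 and 0.47 for Ldha, all called without overlap. The low to high DOX steps of Pkm, Pgam1 and Ldha, 0.20, 0.14 and 0.11, were not called. From zero to high DOX the Gapdh control set went from 13.72, 13.70 and 13.71 to 14.03, 14.02 and 14.05. Eno2, the neuronal enolase, went the other way: KO cells of day 3 read 7.68, 7.80 and 7.64 with zero DOX and 7.60, 7.51 and 7.43 with high DOX, against 7.22, 7.40 and 7.22 in wild type. These differences, 0.42 and -0.19, are given with no test, since it lay above the table's median on 8 of 30 arrays, all KO.

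Pdk1 encodes a kinase that shuts pyruvate dehydrogenase and so keeps pyruvate from the mitochondria. KO cells had less of it than wild type on each day, by 0.66, 0.59 and 0.87 on the log2 scale (adjusted p = 0.0018, 0.0026 and 7.7e-05). Wild-type arrays read 10.28, 10.16 and 10.13 at day 0 and 11.41, 11.41 and 11.42 at day 3. KO arrays read 9.59, 9.12 and 9.87 at day 0 and, at day 3, 10.66, 10.30 and 10.65 with zero DOX, 11.34, 10.72 and 11.01 with low DOX and 11.36, 11.19 and 11.54 with high DOX. High DOX raised it by 0.83 (adjusted p = 7.3e-05) to a level that differed from wild type by -0.05 (95% interval -0.37 to 0.26).

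Of the 5 tested pentose phosphate members 3 rose and 1 fell over the first wild-type day, and with high against zero DOX at day 3 1 rose and 2 fell. These are 4 and 3 of 5, where 81.5% and 48.6% of all genes were called. Pgd, the second NADPH-forming dehydrogenase of the pathway, rose by 1.21 in wild type and by 1.49 in KO over the first day, and its high against zero DOX difference was 0.05 (adjusted p = 0.69, 95% interval -0.14 to 0.24). Tkt, the transketolase that links the pathway back to glycolysis, rose by 0.93 and 0.91; a further probe set of Tkt fell in the same comparisons, by 1.07 and 0.64 on the log2 scale. With high DOX Tkt was 0.17 lower than with zero DOX (adjusted p = 0.0075), while its other 2 tested sets were not called (-0.15 and -0.02).

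Rpia isomerises ribulose 5-phosphate to ribose 5-phosphate, the sugar of nucleotides. Its 3 arrays agreed closely in every group: at day 3 it read 12.40, 12.41 and 12.43 in wild type, 11.91, 11.92 and 11.89 with zero DOX, 12.75, 12.73 and 12.60 with low DOX and 12.82, 12.87 and 12.89 with high DOX. None of the 4 groups overlapped. Zero DOX lay 0.50 below wild type (adjusted p = 7.8e-10), high DOX 0.45 above it (adjusted p = 3e-09), and high DOX 0.95 above zero DOX (SE 0.04, adjusted p = 3.3e-15). At day 1 the high against zero DOX difference was 0.12 and not called.

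Pgls, which opens the lactone between both dehydrogenases, fell with high DOX by 0.30 (adjusted p = 0.00023). Its low against zero DOX difference of -0.18 (adjusted p = 0.022) lost the call without low DOX replicate 1 or 2 or zero DOX replicate 2 or 3 of day 3. Taldo1, the transaldolase, stood 0.27 above wild type in KO cells of day 3 (adjusted p = 4.9e-05) and differed by -0.02 between high and zero DOX (95% interval -0.12 to 0.08). Tktl1, a transketolase-like gene, was flat by its brightest set, which stayed between 6.26 and 7.31, below the table's median on all arrays. Its other 2 sets rose with dose: one read 6.10, 5.96 and 6.25 at day 3 with zero DOX, 7.31, 7.25 and 7.01 with low DOX and 8.62, 8.49 and 7.88 with high DOX, while wild type stood at 6.42 ± 0.03 (SD). That set passed the filter only through the high DOX arrays, so its difference is given with no test: 2.23 for high against zero and 1.09 for low against zero DOX.

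Among the 9 hypoxia genes, Hif1a fell with high against zero DOX at day 3 and 5 were called higher. Of all genes 48.6% were called, 24.4% higher and 24.2% lower. Egln3, counted among the 5, adds no support, since it passed the filter only through DOX arrays of day 3. The others called higher were Egln1, Bnip3, P4ha1 and Kdm3a. Hif1a read 12.30, 12.42 and 12.30 at day 3 with zero DOX, 11.98, 12.13 and 12.01 with low DOX, 11.68, 11.80 and 11.83 with high DOX and 11.94, 11.90 and 11.85 in wild type. It was the only member called lower at both dose steps (-0.30 and -0.26, adjusted p = 0.0001 and 0.0013; 4.77% of all genes were), and zero DOX lay 0.44 above wild type (adjusted p = 6.2e-07). Over 3 days it rose by 0.53 in KO and differed by -0.05 in wild type, an interaction of 0.58 (SE 0.07, adjusted p = 6e-06).

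Of the prolyl hydroxylases that read oxygen, Egln3 had the larger dose difference. Egln3, itself a known HIF target, read 6.37, 6.25 and 6.55 at day 3 in wild type, 7.17, 6.78 and 6.61 with zero DOX, 9.52, 9.03 and 8.25 with low DOX and 10.10, 10.12 and 9.01 with high DOX. Both DOX groups lay above all other arrays, while low and high DOX overlapped, and replicate 3, the female mouse, was lowest at each KO dose. The difference was 2.08 for low against zero, 2.89 for high against zero and 3.35 for high DOX against wild type. These are descriptions with no test, since Egln3 was above the table's median only on the 6 DOX arrays of day 3. At day 1 it read 7.08, 7.10 and 6.72 with high and 7.55, 7.16 and 7.07 with zero DOX. Egln1, the main oxygen sensor of the family, rose by 0.53 with high against zero DOX (adjusted p = 0.0026). By the same set it had fallen by 0.48 over the first wild-type day. A further set of Egln1 rose by 0.35 with high DOX (adjusted p = 0.0022) and was flat over that first day (-0.04, adjusted p = 0.66).

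Bnip3, which marks mitochondria for removal, read 9.54, 9.59 and 10.22 at day 3 in wild type, 10.16, 9.41 and 9.29 with zero DOX, 11.16, 10.66 and 10.13 with low DOX and 11.54, 11.51 and 11.26 with high DOX. All 3 high DOX arrays exceeded every other day 3 array, with 1.82 against zero DOX (SE 0.21, adjusted p = 1.3e-07) and 1.65 against wild type (adjusted p = 8.8e-07). The zero and low DOX arrays overlapped. P4ha1, a collagen prolyl hydroxylase and HIF target, rose by 0.98 with high DOX (adjusted p = 0.00018), to 11.16, 11.04 and 11.06 from 10.37, 9.92 and 10.03. At KO day 0 it read 9.90, 10.65 and 9.49 against 9.39, 9.23 and 9.08 in wild type, 0.78 higher (adjusted p = 0.0035), and 0.47 higher without replicate 2 (adjusted p = 0.042).

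Kdm3a, a histone demethylase induced by HIF, fell sharply and came back. Wild-type arrays read 11.22, 11.18 and 11.29 at day 0, 9.94, 9.85 and 9.87 at day 1 and 10.71, 10.72 and 11.29 at day 3, with a fall of 1.35 and then a rise of 1.02 (adjusted p = 2.4e-11 and 9.5e-09). KO cells took the same course, down by 1.52 at day 1, and at day 3 read 10.75, 10.76 and 10.72 with zero DOX, 11.22, 11.09 and 10.88 with low DOX and 11.49, 11.42 and 11.33 with high DOX. High DOX arrays lay above all others of day 3, although wild-type replicate 3 stood well above its group.

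Ankrd37, a small ankyrin-repeat gene used as a hypoxia marker, read 9.02, 9.09 and 8.75 in wild type at day 0, 8.15, 8.21 and 8.03 at day 1 and 9.79, 9.90 and 10.72 at day 3. The last rise, 2.00 (SE 0.36, adjusted p = 4.1e-05), was the second largest of any member from day 1 to day 3. Its dose difference was not called, and replicate 3 was the lowest array at each dose: 10.45, 10.27 and 9.46 with low and 10.72, 10.71 and 9.37 with high DOX against 9.90, 9.66 and 9.43 with zero DOX (0.60, SE 0.36, adjusted p = 0.18). At day 0 it was 1.05 lower in KO on the log2 scale (adjusted p = 0.031). That call was lost on leaving out any of the 3 KO arrays, or wild-type replicate 1 or 2, of that day. With the KO replicate number as a block the high against zero DOX difference was called (adjusted p = 0.014), as it was with sex as a term (adjusted p = 0.017), and its interaction with day had an adjusted p of 0.022 under the block and 0.24 without it. With sex as a term the KO and wild-type levels of Ankrd37 differed by -0.77 at day 1 (adjusted p = 0.0059), where the value without it was -0.22 (adjusted p = 0.65). Vegfa, the angiogenic growth factor, and Ndrg1, a stress gene, fell by 0.75 and 0.57 on the log2 scale over the first wild-type day and had high against zero DOX differences of -0.15 and -0.06 at day 3, which were not called. The 2 tested probe sets of Vegfa disagreed on the dose: the dimmer one rose by 2.32 with high DOX (adjusted p = 2.5e-11) and was 1.16 lower in KO cells of day 3 on the log2 scale (adjusted p = 4.6e-06), so the response of Vegfa depends on the set.

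**Figure D4:**
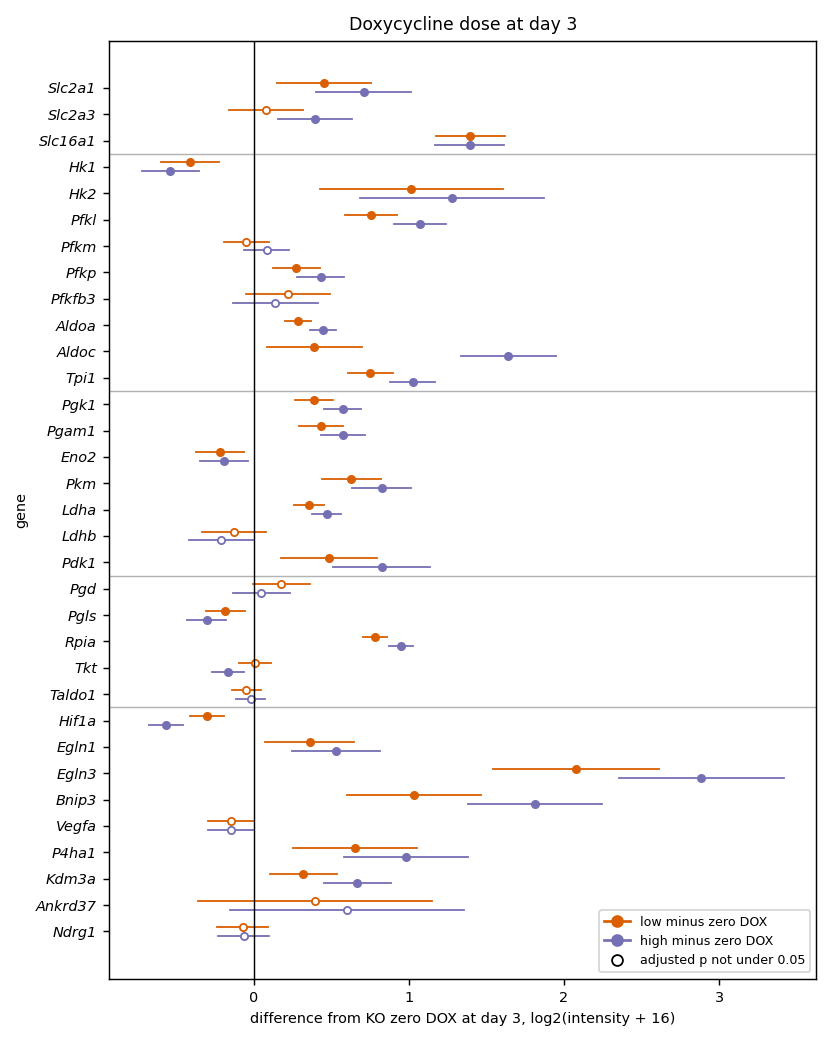
Difference of low DOX and of high DOX from zero DOX at day 3 for the 33 tested members, on the log2(intensity + 16) scale, with 95% intervals from limma; filled points have an adjusted p under 0.05. Egln3, Bnip3 and Aldoc lie farthest to the right with high DOX, and Hif1a, Hk1 and Pgls lie left of 0 at both doses. Egln3 and Eno2 are shown as a description.

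At both dose steps of day 3, zero to low and low to high, 9 members were called higher (4.44% of all genes): Pfkl, Aldoa, Aldoc, Tpi1, Pgk1, Rpia, Bnip3 and Kdm3a, and Egln3, which adds no support since it passed the filter only through these DOX arrays. Between low and high DOX alone 9 members were higher, 8 without Egln3, and 2 lower, Hif1a and Tkt (12.8% of all genes called, 6.69% higher and 6.09% lower). This smaller step depended on single arrays: the 11 calls became 2 without low DOX replicate 3 and 15 without low DOX replicate 1, and 1 where only both groups entered the fit. The zero to low step went from 23 calls to 15 without low DOX replicate 1.

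The promoters of members that moved with dose are shown here for what they hold near the start of the gene: Egln3, Bnip3 and Aldoc, with the largest high against zero DOX differences of the tested members, Tktl1, whose other sets rose, and Hif1a, the only member called lower at both. Each line gives the 250 bases before an annotated start, 5′ to 3′ along the gene, from RefSeq windows on GRCm38.p6; capitals mark the core of the hypoxia response element, ACGTG or GCGTG, on either strand.
Egln3, chr12:54203875-54204124, minus strand: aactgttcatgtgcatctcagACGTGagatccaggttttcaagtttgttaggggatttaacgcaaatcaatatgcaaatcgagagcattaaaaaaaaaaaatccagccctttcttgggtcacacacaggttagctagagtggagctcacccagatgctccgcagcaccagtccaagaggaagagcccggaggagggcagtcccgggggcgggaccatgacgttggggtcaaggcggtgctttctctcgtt
Bnip3, chr7:138909507-138909756, minus strand: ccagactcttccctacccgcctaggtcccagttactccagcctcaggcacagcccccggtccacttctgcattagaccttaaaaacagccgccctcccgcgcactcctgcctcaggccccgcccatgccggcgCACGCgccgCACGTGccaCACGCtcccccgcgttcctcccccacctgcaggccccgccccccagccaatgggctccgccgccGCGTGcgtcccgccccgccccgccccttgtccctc
Aldoc first start, chr11:78322823-78323072, plus strand: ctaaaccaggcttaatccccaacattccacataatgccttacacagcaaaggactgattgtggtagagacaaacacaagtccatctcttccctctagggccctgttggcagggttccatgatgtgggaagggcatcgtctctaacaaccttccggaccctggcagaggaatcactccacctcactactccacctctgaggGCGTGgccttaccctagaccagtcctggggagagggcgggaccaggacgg
Aldoc second start, chr11:78323948-78324197, plus strand: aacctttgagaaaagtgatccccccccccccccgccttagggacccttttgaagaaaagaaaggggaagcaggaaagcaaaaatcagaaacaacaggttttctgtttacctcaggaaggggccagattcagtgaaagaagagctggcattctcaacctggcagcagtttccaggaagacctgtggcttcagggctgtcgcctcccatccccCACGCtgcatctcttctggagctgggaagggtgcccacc
Tktl1, chrX:74177009-74177258, plus strand: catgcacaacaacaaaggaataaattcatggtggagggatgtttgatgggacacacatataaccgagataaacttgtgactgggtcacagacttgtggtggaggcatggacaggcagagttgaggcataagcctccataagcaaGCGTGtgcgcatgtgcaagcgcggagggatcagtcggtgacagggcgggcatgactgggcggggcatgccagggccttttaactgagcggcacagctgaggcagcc
Hif1a, chr12:73907617-73907866, plus strand: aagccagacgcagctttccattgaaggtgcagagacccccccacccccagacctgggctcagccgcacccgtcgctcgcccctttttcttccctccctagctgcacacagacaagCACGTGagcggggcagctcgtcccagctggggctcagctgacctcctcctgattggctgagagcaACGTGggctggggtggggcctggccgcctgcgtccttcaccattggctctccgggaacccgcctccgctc

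Bnip3 holds 5 cores in this window, Hif1a 3, and Egln3, each Aldoc start and Tktl1 1 each. Overlapping matches on both strands count separately, and the E-box CACGTG contains ACGTG in both directions; it occurs once each in the Bnip3 and Hif1a windows. A window with either core was found for 34 of the 37 members with a RefSeq window, and 42 of their 54 windows (77.8%) held one, where 38.6% of all 32851 windows of the same length did. ACGTG alone was in 38.9% of the member windows and 16.6% of all windows, GCGTG in 57.4% and 28.2%, and CACGTG in 11.1% and 6.02%. Both cores contain CG, and the windows were not matched for base composition, whose part in these shares was not tested. Of the elements that Irf4 is known to bind, only the following were searched, and only in these windows. GAAA, NN and GAAA in a row was in 1 member window, of Vegfa, and in 2.98% of all windows. GGAA, NN and GAAA in a row was in 1 member window, of Pdk1, and in 2.3% of all windows. Hif1a, which fell with dose, and Bnip3, which rose, both hold the hypoxia core.

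Several members changed differently over time in wild-type and KO cells, though over the first day their share was no larger than that of all genes. For the change from day 0 to day 1, 12 members differed, 7 with a larger value in KO and 5 with a smaller one (43.9% of all genes called, 32.4% higher and 11.5% lower), or 6 and 5 without Egln3 and Eno2; the split became 5 and 7 with centred arrays and 4 and 7 after quantile normalization. Centring moved the share of higher calls over all genes from 73.9% to 52.8%. For day 0 to day 3, 18 members differed, 6 larger and 12 smaller in KO (25.9% of all genes called, 16% higher and 9.95% lower), and 5 and 12 without Eno2 and Egln3 or with centred arrays, which moved the share of higher calls over all genes from 61.6% to 46.2%. The 12 smaller ones held the transporters Slc16a1 and Slc2a3, the upper enzymes Hk2, Aldoc, Tpi1 and Aldoa, the lower enzymes Pkm, Pgk1, Pgam1 and Ldha, Rpia and P4ha1. P4ha1 rose by 1.29 in wild type and changed by 0.09 in KO, and Slc16a1 by 1.35 and -0.20. Both of these and Hk2 began higher in KO cells at day 0.

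**Figure D5:**
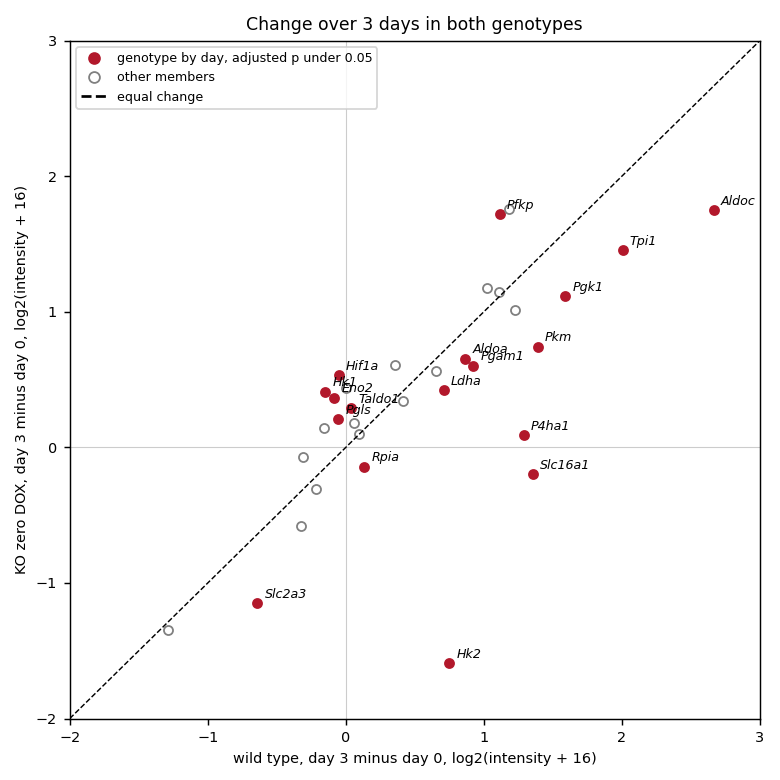
Change from day 0 to day 3 of each of the 33 tested members in wild type (x axis) and in KO cells without DOX (y axis), both as log2(intensity + 16) differences; the dashed line marks equal change and named red points have a genotype by day interaction with adjusted p under 0.05. Of the 18 named members 12 lie below the line, Hk2 farthest. Egln3 and Eno2 are shown as a description.

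Other genes of the same pathways were counted from lists that hold no member. Of 25 tested genes of glucose and pyruvate metabolism, 13 rose and 4 fell with high against zero DOX at day 3 (all genes: 24.4% higher, 24.2% lower), with a median of 0.18 against 0.00 over all genes. Slc2a6, a further glucose transporter family gene that had risen by 2.80 over the first wild-type day, fell with high DOX by 1.06 (adjusted p = 1.6e-06), and Pfkfb4, a relative of Pfkfb3, by 0.77 (adjusted p = 2.2e-07). Of 6 tested genes around the pentose phosphate pathway and NADPH, 4 rose and 0 fell. Of 14 tested hypoxia pathway genes, 5 rose and 3 fell, near the 48.6% called over all genes: Ero1a, an oxidase of protein folding in the endoplasmic reticulum, rose by 1.49, Mxi1, a Myc antagonist, by 1.36 and Fam162a, a hypoxia-induced gene, by 1.20. Bhlhe40, a transcriptional repressor induced by hypoxia, fell by 1.09 (adjusted p = 2.7e-08). In wild type Bhlhe40 had fallen by 2.98 over the first day, and on day 3 KO cells exceeded wild type by 1.33.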

How the data were processed

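The deposited intensities were made by the authors with D-Chip (PM-only model) on a linear scale and normalized between arrays, per the labels and series text; MAS5 stands in the submitters' processing notes too, and its role is not stated there. Here log2(deposited intensity + 16) was taken with no further normalization. Of 45101 probe sets, 34945 name 1 gene, 932 several and 9160 none in the platform annotation, and 64 are controls. A gene was tested by its brightest set among those that exceeded the table median (188.2) on at least 3 of 30 arrays. A member counted as tested only if that was the set chosen by the rule. Tktl1 is therefore among the 12183 genes by another set, but not among the 33 tested members. One limma 3.58.1 model (R 4.3.3) with a mean per group gave all comparisons, with Benjamini-Hochberg adjustment over 12183 genes in each and a threshold of 0.05. The number of arrays limits the precision; 3 against 3 cannot reach an exact permutation p under 0.1.

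Named genes were the up to 6 called, non-overlapping members of largest difference each way per comparison, and up to 3 other genes each way; further members are described for their role. The members and lists were chosen with earlier results of these data known. Per the labels, 2 of 3 replicates ran in parallel and 1 at another time, without saying which. Same-numbered KO cultures deviated together (correlations 0.337 to 0.799 in 7 of 7 comparisons); with wild type the correlations were -0.155 to 0.235. Promoters are RefSeq windows of GRCm38.p6. The test script was tried on simulated data. Alternatives covered scaling, pseudocount, filter, probe set, array weights, sex, block and each replicate left out.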

Additional observations from a re-analysis of the deposited data

Results flagged for a closer look

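The results here are listed because an interaction term showed that a change differed between groups. The change from day 0 to day 1 differed between KO and wild type in 43.9% of all genes tested. Of the 31 members without Egln3 and Eno2, 6 had a larger and 5 a smaller change in KO. Over all 33 the share was no larger than that of all genes, with 12 members. For the 11 of these with the largest values the difference of the changes, KO minus wild type, was -2.38 for Hk2, -1.61 for Slc16a1, -0.85 for P4ha1, -0.3 for Pgam1 and -0.29 for Ldha on the negative side, and 0.27 for Pfkm, 0.43 for Vegfa, 0.48 for Pfkp, 0.62 for Eno2, 0.65 for Ndrg1 and 0.66 for Hk1 on the positive side. Some of these calls were lost under an alternative. After quantile normalization Pfkm was 0.05 (adjusted p = 0.7) and Vegfa 0.24 (adjusted p = 0.054), and Vegfa was 0.01 as the mean of its sets. Without KO day 0 replicate 2 P4ha1 was -0.54 (adjusted p = 0.054). Eno2 passed the filter only through KO arrays.

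For the change from day 0 to day 3, 25.9% of all genes tested were called. Of the 31 members without Egln3 and Eno2, 5 had a larger and 12 a smaller change in KO. Over all 33 the change from day 0 to day 3 differed in 18 members. For the 6 with the largest values each way, it was smaller in KO by -2.34 for Hk2, -1.55 for Slc16a1, -1.2 for P4ha1, -0.92 for Aldoc, -0.65 for Pkm and -0.55 for Tpi1, and larger by 0.25 for Taldo1, 0.26 for Pgls, 0.45 for Eno2, 0.56 for Hk1, 0.58 for Hif1a and 0.61 for Pfkp. The Pgls call was lost under 8 alternatives, with 0.16 (adjusted p = 0.086) without KO day 0 replicate 2. Eno2 passed the filter only through KO arrays, so its value is a description. Both day comparisons share the day 0 arrays, where Hk2, Slc16a1 and P4ha1 were already higher in KO cells, as were 11 of 14 myeloid markers. The part of those cells in these values was not tested.

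The high against zero DOX difference was not the same at day 3 and day 1 in 20 of the 33 members. By this test, added after the data were seen, 26.2% of all genes were called. Of the 31 members without Egln3 and Eno2, 17 had a larger and 2 a smaller difference at day 3. The day 3 minus day 1 value was 3.18 for Egln3, 1.85 for Bnip3, 1.64 for Aldoc, 1.11 for Slc16a1, 1.09 for Hk2 and 0.94 for Tpi1, and -0.43 for Hif1a and -0.3 for Pgls. Egln3 passed the filter only through the DOX arrays of day 3, so its value is a description. The Hk2 value had an adjusted p of 0.049 by limma's test and lost the call under 13 alternatives, with an adjusted p of 0.099 without the discordant day 1 arrays.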

How the results depend on the processing

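With only the groups compared in the fit, the members called went from 13 to 4 for KO against wild type at day 0 and from 11 to 1 for high against low DOX. Array weights gave 21 for high against low DOX and 2 for high against zero DOX at day 1 (main 0). One named value reversed: Vegfa, KO against wild type at day 1, was -0.0129 as the mean of its probe sets and 0.35 by the chosen set. Leaving out 1 array at a time gave 2 to 15 calls for high against low DOX, 15 to 24 for low against zero DOX at day 3 and 8 to 12 for KO against wild type at day 0. The range was 24 to 25 for high against zero DOX at day 3, 18 to 21 for its interaction with day, 22 to 25 for the first wild-type day and 0 to 0 for both day 1 doses. With the replicate number as a block over all arrays the calls for high against zero DOX at day 3 were 25, and with KO arrays only 27; no member count moved by over 1.5 times under the block. Of the alternatives' values for the 170 named results, 3226 kept their direction and side of the threshold and 128 lost the call. The cause of these moves was not tested. Centring moved the median of all genes for the KO change from day 0 to day 3 from 0.04 to -0.09.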
